A study of Mus musculus with 7 samples.

Results

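NMDA receptors are glutamate-gated cation channels of excitatory synapses. Each is a tetramer built around the obligatory GluN1 subunit, encoded by Grin1, which binds the co-agonist glycine or D-serine. GluN2 subunits, encoded by Grin2a to Grin2d, bind glutamate and set the kinetics of the channel, and GluN3 subunits, encoded by Grin3a and Grin3b, bind glycine and lower its calcium permeability. In the forebrain GluN2B prevails early in development, and GluN2A is added as synapses mature. The genes described here are these 7 subunit genes, taken by symbol from the 43626 gene identifiers of the deposited table; all 7 were found.

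RNA from the prefrontal cortex of C57BL/6J males 8 weeks old was sequenced in 7 libraries, 3 of wild type (WT) and 4 of the genotype written hDISC1AA/+ in the labels. The study concerns the phosphorylation of DISC1, a scaffold protein of neurons. The labels define the altered allele no further, name no agent or treatment and do not say whether each library came from a separate mouse, so p-values measure the spread between these libraries, which may in part be technical. One hDISC1AA/+ column carries a number that no sample title has; below, it is the unnumbered library.

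The unit throughout is the normalized count, the reads of a gene divided by 1 size factor per library, as the authors deposited it. The libraries held 33512557 to 63845254 reads assigned to genes. WT replicate 1 was the deepest and also stood apart in makeup: 5 oligodendrocyte markers summed to 126792 normalized counts there, while the other 6 had 35342 to 45681. The sum of 4 endothelial markers was 1153 in it and 4486 to 5852 elsewhere. The column name of WT replicate 1 is also formed differently from those of the other 6, and the labels do not say why. In hDISC1AA/+ replicate 1 the sum of 3 choroid plexus markers was 927, against 114 to 195 elsewhere. In the same library the GC content and length of genes accounted for 0.355 of the variance of their deviations from the mean of all libraries, against 0.117 or less in the others. Markers of cortical excitatory neurons were present in every library (the least abundant of 5, averaged over libraries, had 3758 normalized counts). Of 5 cerebellar markers, Gabra6, which marks granule cells, averaged 1.92, En2 9.27, Pcp2 15.3, Cbln3 15.4 and Cbln1 261.

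Of the NMDA receptor genes, Grin2a had lower and Grin2d higher normalized counts in every hDISC1AA/+ library than in any WT library, and the other 5 overlapped between the genotypes. No subunit gene passed the test over all genes. Grin2a averaged 1270.2 ± 222 normalized counts in WT (SD, n = 3) and 857 ± 147 in hDISC1AA/+ (SD, n = 4), and Grin2d 844 ± 113 and 1067 ± 95.2. Of all 17670 genes tested 5.04% had groups that did not overlap, 2.84% lower and 2.2% higher in hDISC1AA/+. After correction for GC content and length the groups of both genes overlapped.

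Genotypes were compared with limma's moderated linear model on log2(normalized count + 1), two-sided, over the 17670 genes with at least 10 normalized counts in at least 3 libraries, with p-values adjusted by Benjamini-Hochberg and called under 0.05. Each log2 fold change is hDISC1AA/+ minus WT; because of the added 1 it falls short of the true change where counts are low. Grin3b did not reach the minimum, so 6 of the 7 subunit genes were tested. Over all genes 0 passed (0%), and 431 (2.44%) had an unadjusted p under 0.05. On the recovered reads edgeR and DESeq2 also called 0. They had 452 of 17540 and 604 of 28315 genes tested at an unadjusted p under 0.05.

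**Figure D1:**
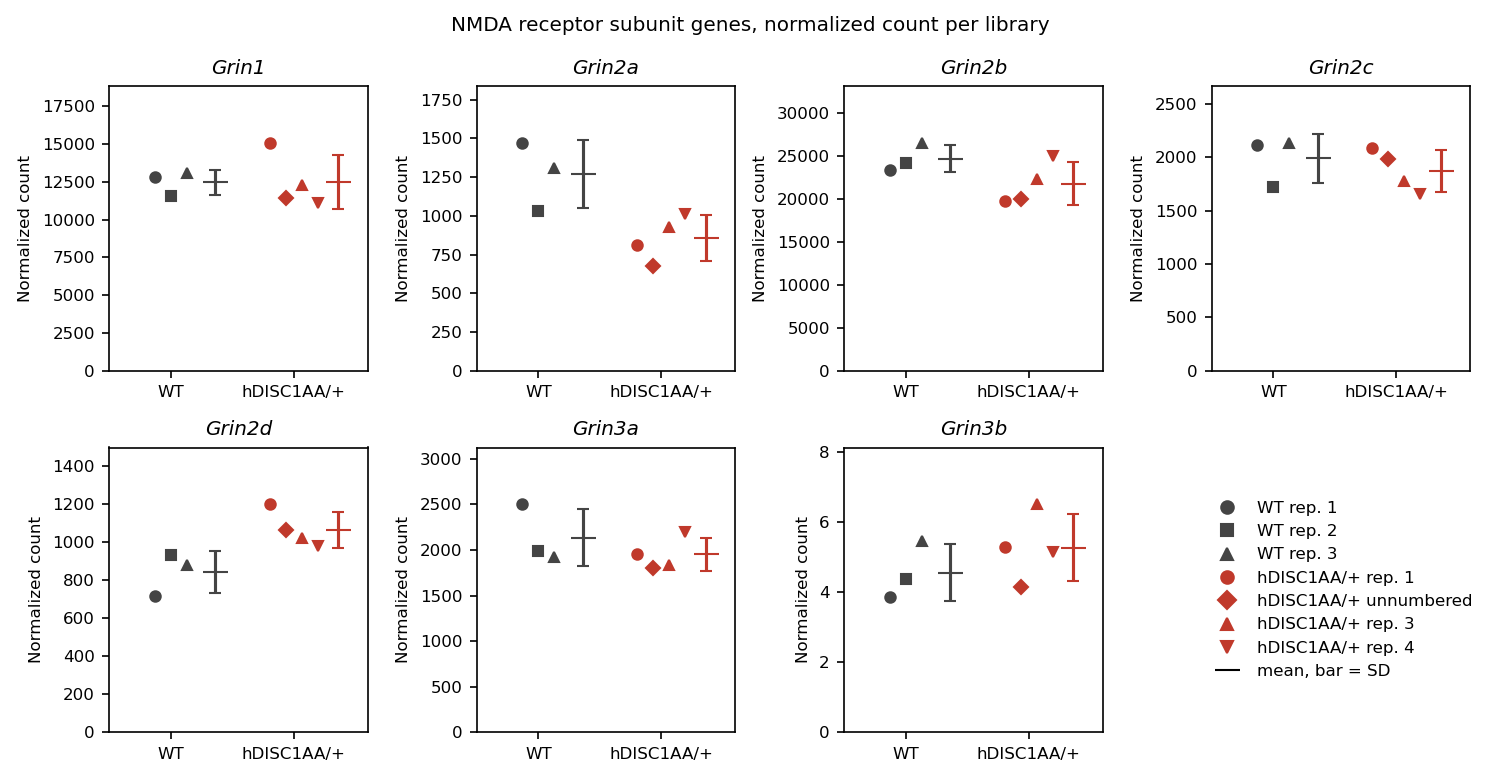
Normalized count of each NMDA receptor subunit gene (y axes, linear from 0) in the 3 WT libraries (dark) and the 4 hDISC1AA/+ libraries (red); symbols are libraries, and side bars give the group mean and SD. Grin2a lies lower and Grin2d higher in hDISC1AA/+ with no overlap, by a narrow margin in both, and the other genes overlap.

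Grin1 encodes GluN1, without which no NMDA receptor reaches the surface. It lies on chromosome 2 (25291181 to 25319187 of GRCm38, minus strand; ENSMUSG00000026959). It had 12804, 11531 and 13065 normalized counts in WT replicates 1 to 3. Among the hDISC1AA/+ libraries, replicate 1 had 15066, the unnumbered one 11449.7, replicate 3 12267 and replicate 4 11098. Replicate 1 was thus the highest of all 7 libraries, while the unnumbered library and replicate 4 were the lowest, and the groups overlapped. The means were 12467 ± 821 in WT and 12470.2 ± 1799 in hDISC1AA/+ (SD, n = 3 and 4), with a log2 fold change of -0.01 (95% CI -0.28 to 0.26; limma adjusted p = 0.998), whose sign changed in 6 of 17 alternative analyses. The interval corresponds to between 0.824 and 1.20 times the WT level. An antisense gene, Grin1os, overlaps Grin1 on the opposite strand. Its normalized count was 115 in WT replicate 1 and 334 to 480 elsewhere. The strand setting of the counting is not given in the sources used here, so reads from the shared stretch cannot be told apart.

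Grin2a encodes GluN2A, the subunit that speeds the decay of synaptic NMDA currents as cortex matures. The gene lies on chromosome 16 (9567898 to 9995560, minus strand; ENSMUSG00000059003), and no other annotated gene overlaps it. WT replicates 1 to 3 had 1470.4, 1031 and 1309 normalized counts. The hDISC1AA/+ libraries had 812 (replicate 1), 675 (the unnumbered library), 927 (replicate 3) and 1013 (replicate 4). The lowest WT library and the highest hDISC1AA/+ library, at 1031 and 1013, were nearly level. The counts behind these values were 650 to 2291 reads. The difference of the means was -32.5% of the WT mean and -0.57 as a log2 fold change (95% CI -0.95 to -0.18; unadjusted p = 0.00857, limma adjusted p = 0.974). The exact permutation test over the 35 divisions of 7 libraries into 3 and 4 gave p = 0.0571, two-sided, where the smallest possible is 0.0286.

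The difference in Grin2a kept its direction in all 17 alternative analyses, with log2 fold changes of -0.71 to -0.44, unadjusted p-values of 0.00164 to 0.0427 and adjusted p-values of 0.392 or more. It was -0.46 without WT replicate 1, and -0.44 without WT replicate 1 and hDISC1AA/+ replicate 1. With GC content and length corrected it was -0.48. On the corrected scale WT replicate 2 had 943.6 normalized counts, below hDISC1AA/+ replicates 1 (944.0) and 4 (964). The summed counts of 6 astrocyte markers were 149290.0 to 222451 in WT and 122508 to 159702 in hDISC1AA/+, and all 6 were lower on average in hDISC1AA/+. Those of 5 excitatory neuron markers were 230420.0 to 269150.0 and 208724 to 281574, with 4 lower. The same count was 5 of 5 for oligodendrocytes, 3 of 3 for their precursors, 4 of 4 for microglia and 4 of 6 for interneurons, while 4 of 4 endothelial markers were higher. The summed counts overlapped between the genotypes for each of these lists. WT replicate 1 had the highest sums of all libraries for astrocytes, oligodendrocytes (126792), their precursors (4307) and microglia (9729). Its endothelial sum was the lowest, at 1153, against 4623 and 5852 in WT replicates 2 and 3. How far the directions of the markers rest on that library was not tested. In bulk tissue fewer cells of a type and less RNA per cell cannot be told apart, and the part of cell makeup in the Grin2a difference was not tested.

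Grin2b encodes GluN2B, the slower GluN2 subunit with a long tail that binds CaMKII. It lies on chromosome 6 (135713233 to 136173511, minus strand; ENSMUSG00000030209). WT replicates 1 to 3 had 23396, 24149 and 26492 normalized counts. In hDISC1AA/+, replicate 1 had 19736, the unnumbered library 19936, replicate 3 22350.1 and replicate 4 25008. The first 3 of these lay below every WT library, and replicate 4 above all but 1 of them. On the log2 scale the difference was -0.19 (95% CI -0.43 to 0.06; limma adjusted p = 0.974), and -0.11 after the correction for GC content and length. This difference was within the spread between libraries.

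Grin2c encodes GluN2C, best known from cerebellar granule cells. It lies on chromosome 11 (115249169 to 115267243, minus strand; ENSMUSG00000020734). It had 2108, 1721 and 2132 normalized counts in WT replicates 1 to 3. The hDISC1AA/+ libraries had 2088 (replicate 1), 1977 (the unnumbered library), 1777 (replicate 3) and 1650.1 (replicate 4), so both groups covered nearly the same range. The difference on the log2 scale was -0.08 (95% CI -0.36 to 0.19; limma adjusted p = 0.978).

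Grin2d encodes GluN2D, which gives slow currents with little magnesium block and is found in the adult cortex mostly in interneurons. It lies on chromosome 7 (45831883 to 45878378, minus strand; ENSMUSG00000002771). WT replicates 1 to 3 had 718, 935 and 879 normalized counts. The hDISC1AA/+ libraries had 1199 (replicate 1), 1065 (the unnumbered library), 1023 (replicate 3) and 979 (replicate 4). WT replicate 1 was the lowest and hDISC1AA/+ replicate 1 the highest of the 7, the libraries that also stood apart over all genes. The hDISC1AA/+ mean was 26.3% above the WT mean, with a log2 fold change of 0.34 (95% CI 0.06 to 0.63; unadjusted p = 0.0239, limma adjusted p = 0.974). The exact permutation test gave p = 0.0286, two-sided, the smallest that 35 divisions allow.

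The direction for Grin2d held in all 17 alternative analyses, but its size rested on the outlying libraries. Without WT replicate 1 and hDISC1AA/+ replicate 1 the log2 fold change was 0.17 (95% CI -0.04 to 0.38; unadjusted p = 0.095). After correction for GC content and length it was 0.27, and WT replicate 2 (1010.3 normalized counts on the corrected scale) lay above hDISC1AA/+ replicate 1 (996). The summed counts of 6 interneuron markers overlapped between the genotypes, at 27028 to 33010 in WT and 20796 to 36232 in hDISC1AA/+. hDISC1AA/+ replicate 1 had the lowest sum of these markers and the highest Grin2d. The coding gene Kdelr1 overlaps Grin2d on the opposite strand. It had 1673 to 1925 normalized counts and a log2 fold change of -0.03 (95% CI -0.25 to 0.18).

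Grin3a encodes GluN3A, which is abundant in the first weeks after birth and restrains synapse maturation. It lies on chromosome 4 (49661611 to 49845744, minus strand; ENSMUSG00000039579). It had 2499, 1992 and 1918 normalized counts in WT replicates 1 to 3. Among the hDISC1AA/+ libraries, replicate 1 had 1961, the unnumbered one 1807, replicate 3 1839 and replicate 4 2199. WT replicate 1 was the highest and the groups overlapped. The coding gene Ppp3r2 (1.93 to 17.6 normalized counts) and the pseudogene Gm12459 overlap the Grin3a locus on the same strand. The groups differed by -0.12 on the log2 scale (95% CI -0.40 to 0.16; limma adjusted p = 0.974), and -0.01 without WT replicate 1, so most of the average difference rested on that library.

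Grin3b encodes GluN3B, known mainly from motor neurons. It lies on chromosome 10 (79970715 to 79977190, plus strand; ENSMUSG00000035745). It had 4 to 6 reads in each library, or 3.85 to 6.50 normalized counts. Fitted without the minimum count, the genotypes differed by 0.17 on the log2 scale (95% CI -0.81 to 1.16; limma adjusted p = 0.97). The coding gene Tmem259, on the opposite strand, shares part of the locus.

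Levels can be compared between genes only per length, here as normalized counts per kb of merged exons over the 7 libraries. Grin1 was first (1285 ± 140, SD, n = 7), then Grin2b (926 ± 102), Grin2c (382 ± 40.1), Grin3a (165 ± 19.8), Grin2d (146 ± 22.7), Grin2a (57.7 ± 15.4) and Grin3b (1.51 ± 0.277). Grin3a lay above Grin2d in 4 of 7 libraries, all 3 of WT and 1 of 4 of hDISC1AA/+, and over the 7 these neighbours do not differ beyond their spread; every other neighbour in this order differed the same way in all 7. The order depends on the length used. Per kb of the longest transcript Grin3a was above Grin2d in all 7 libraries. Per kb of coding sequence Grin2b was above Grin1 in 6 of 7, Grin3a above Grin2c in 5 of 7 and Grin2d above Grin2a in 1 of 3 WT and 4 of 4 hDISC1AA/+ libraries. By this last length Grin2a was above Grin2d on average in WT (289 ± 50.6 and 213 ± 28.4, SD, n = 3) and below it in hDISC1AA/+ (195 ± 33.4 and 269 ± 24.0, SD, n = 4). Grin2b and Grin1 were the 2 most abundant subunit transcripts and Grin3b the last by all 3 lengths. The annotation used for counting is not given in the sources used here, and how many reads a gene with very long untranslated regions receives depends on it. The level of Grin2a against Grin2b is therefore that of this table and not a measure of the proteins.

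Among the 4 GluN2 genes, Grin2b made up 62.7% ± 1.79 in WT and 60.0% ± 4.46 in hDISC1AA/+ per kb of merged exons (SD, n = 3 and 4). Grin2c made up 24.9% ± 2.20 and 25.6% ± 3.56. Grin2d made up 6.96%, 9.29% and 7.79% in WT replicates 1 to 3. Its share was 12.6% (hDISC1AA/+ replicate 1), 11.5% (the unnumbered library), 10.5% (replicate 3) and 9.56% (replicate 4). The share of Grin2a was 5.29%, 3.80% and 4.31% in WT replicates 1 to 3, and 3.16%, 2.70%, 3.55% and 3.67% in the hDISC1AA/+ libraries in the same order as for Grin2d. The Grin2a share was thus lower and the Grin2d share higher in every hDISC1AA/+ library, while those of Grin2b and Grin2c overlapped. By coding length the mean share of Grin2b was 83.7% and that of Grin2c 8.45%, so the shares themselves depend on the length used. The non-overlap of Grin2a and Grin2d held for all 3 lengths. Each length is a constant per gene applied to the same counts, so it could hardly change that order, and this is no separate check. Shares were not computed with GC content and length corrected. No test was made on shares.

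**Figure D2:**
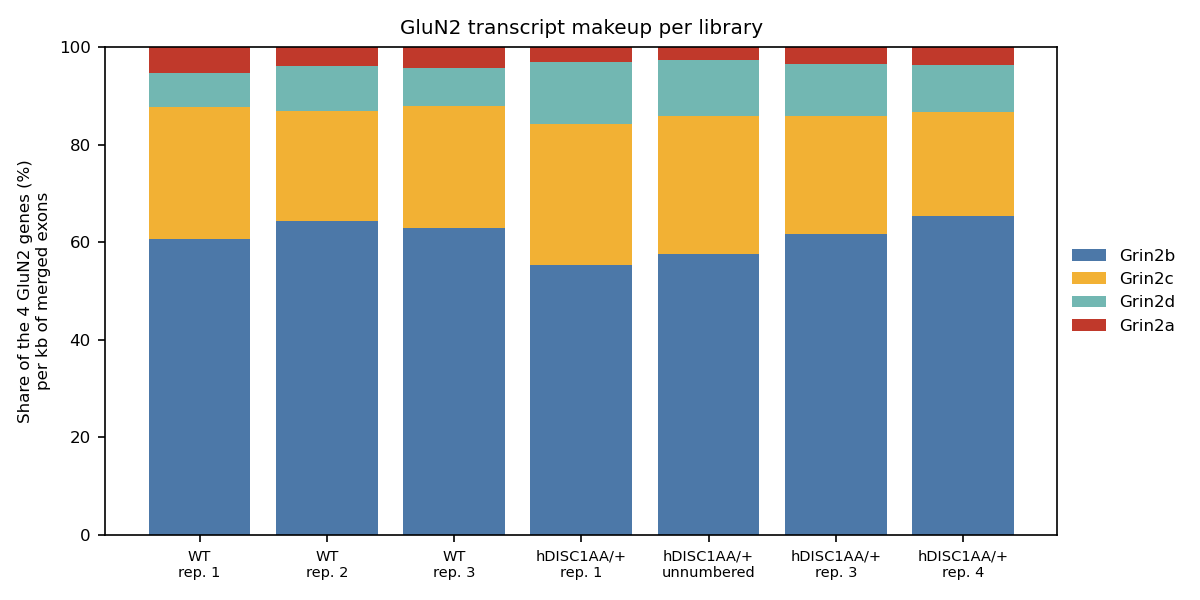
Share of each GluN2 gene in the sum of the 4 (y axis, percent, normalized counts per kb of merged exons) in each library (x axis). Grin2b forms 55.4% to 65.5% of every bar, Grin2a 2.70% to 5.29% and Grin2d 6.96% to 12.6%.

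Ratios of 2 subunit genes within a library do not depend on its size factor. Grin2a reads were 6.28%, 4.27% and 4.94% of Grin2b reads in WT replicates 1 to 3. They were 4.12% (hDISC1AA/+ replicate 1), 3.38% (the unnumbered library), 4.15% (replicate 3) and 4.05% (replicate 4). Every hDISC1AA/+ library lay below every WT library, with the nearest at 4.15% and 4.27%. The mean log2 ratio was lower by 0.38 in hDISC1AA/+ (-4.68 ± 0.14 against -4.29 ± 0.28 in WT, SD, n = 4 and 3; exact permutation p = 0.0286, two-sided, the smallest possible). Adjusted over the 6 ratios tested, this was p = 0.171 by the same exact permutation test. With 35 divisions an adjusted p under 0.05 was out of reach for 1 ratio alone, so the adjusted value cannot decide. The difference was -0.38 after correction for GC content and length, without overlap, and -0.23 without WT replicate 1, which had the highest ratio of the 7.

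Grin2d reads were 3.07%, 3.87% and 3.32% of Grin2b reads in WT replicates 1 to 3. They were 6.08% (hDISC1AA/+ replicate 1), 5.34% (the unnumbered library), 4.57% (replicate 3) and 3.92% (replicate 4), again without overlap but with 3.87% next to 3.92%. The log2 ratio was higher by 0.53 in hDISC1AA/+ (exact permutation p = 0.0571, adjusted p = 0.171), and by 0.37 after correction for GC content and length (exact permutation p = 0.0857, unadjusted). After that correction the groups overlapped, with WT replicate 2 at 4.59% and hDISC1AA/+ replicates 1 and 4 at 4.41% and 4.43%. Grin2a over Grin1 overlapped between the groups through hDISC1AA/+ replicate 4 and WT replicate 2 (9.13% and 8.94%) and had a log2 difference of -0.56 (exact permutation p = 0.0857, adjusted p = 0.171). For Grin2b over Grin1 (-0.18), Grin2c over Grin2b (0.10, and -0.05 with GC content and length corrected) and Grin3a over Grin1 (-0.12, and 0.07 without both outlying libraries) the groups overlapped, with exact permutation p-values of 0.486 to 0.629.

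**Figure D3:**
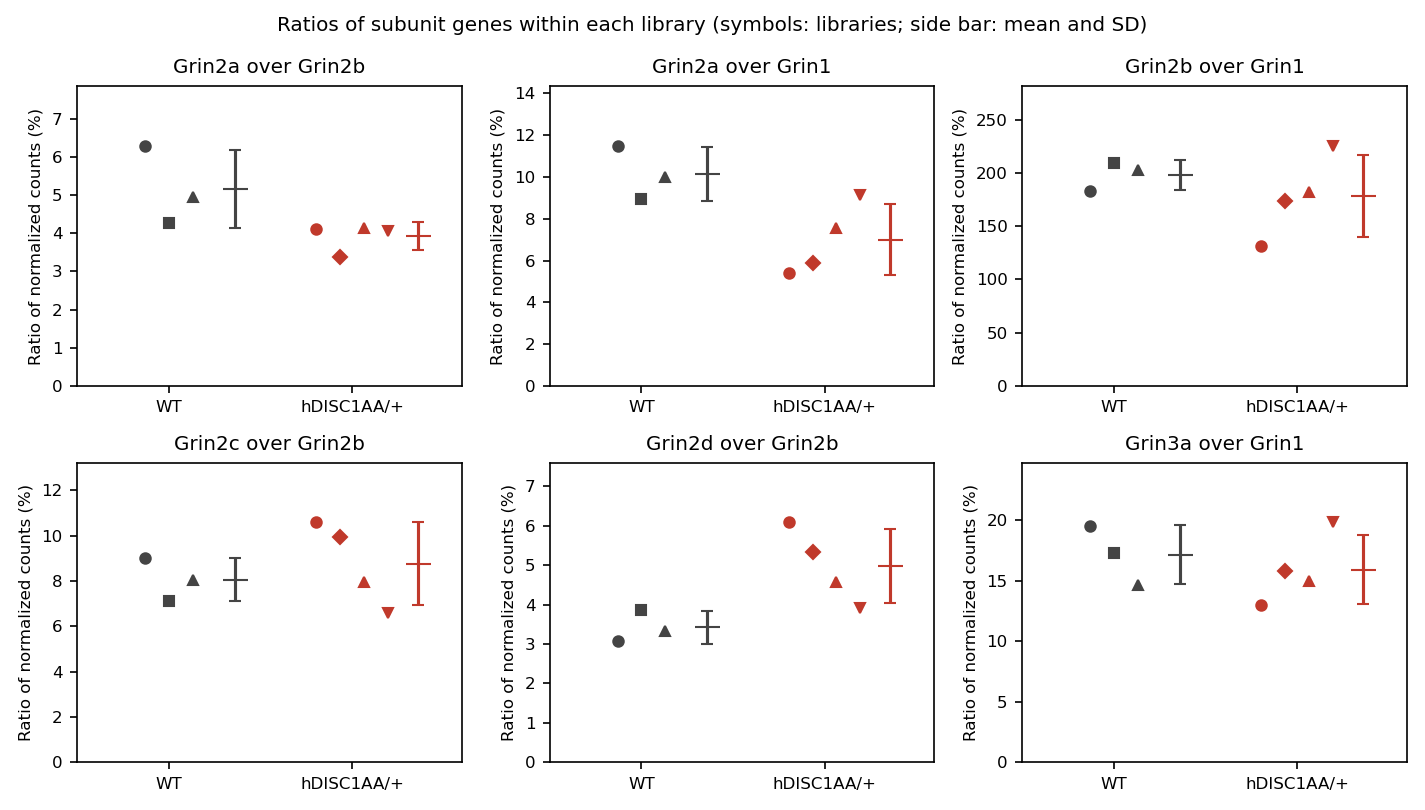
Ratio of the normalized counts of 2 subunit genes within each library, in percent (y axes, linear from 0), for WT (dark) and hDISC1AA/+ (red); symbols are libraries as in the plot of normalized counts, and side bars give the mean and SD. Grin2a over Grin2b is lower and Grin2d over Grin2b higher in hDISC1AA/+ without overlap, at an adjusted p of 0.171 for each. With 35 divisions 1 ratio alone could not reach an adjusted p under 0.05.

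The subunit genes differ in GC content, which the choice of genes did not use. The longest transcripts of Grin2a, Grin2b and Grin3a have 44.8%, 45.7% and 49.2% GC. Those of Grin1, Grin2c, Grin3b and Grin2d have 59.4%, 62.1%, 63.5% and 65%. In hDISC1AA/+ replicate 1, the library with the strongest relation of counts to GC content and length, the log2 deviation from the mean of all libraries was -0.30 for Grin2a, -0.21 for Grin2b and -0.04 for Grin3a. It was 0.28 for Grin1, 0.13 for Grin2c and 0.32 for Grin2d. The genes with low GC content thus lay below and those with high GC content above their means in that library. The genes with low GC content also have longer merged exons (12275 to 24842 bases) than the other tested ones (5037 to 9700 bases). Over these genes GC content and length therefore cannot be told apart. WT replicate 1 had 0.55 for Grin2a and -0.42 for Grin2d, the opposite signs, but 0.03 for Grin2b, 0.31 for Grin3a, 0.05 for Grin1 and 0.14 for Grin2c. GC content and length accounted for 0.0292 of the variance there. In the unnumbered library Grin2a was at -0.57, its lowest, and Grin2b at -0.20. With GC content and length corrected, Grin1 spanned 11798 to 13403 normalized counts, against 11098 to 15066 before.

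**Figure D4:**
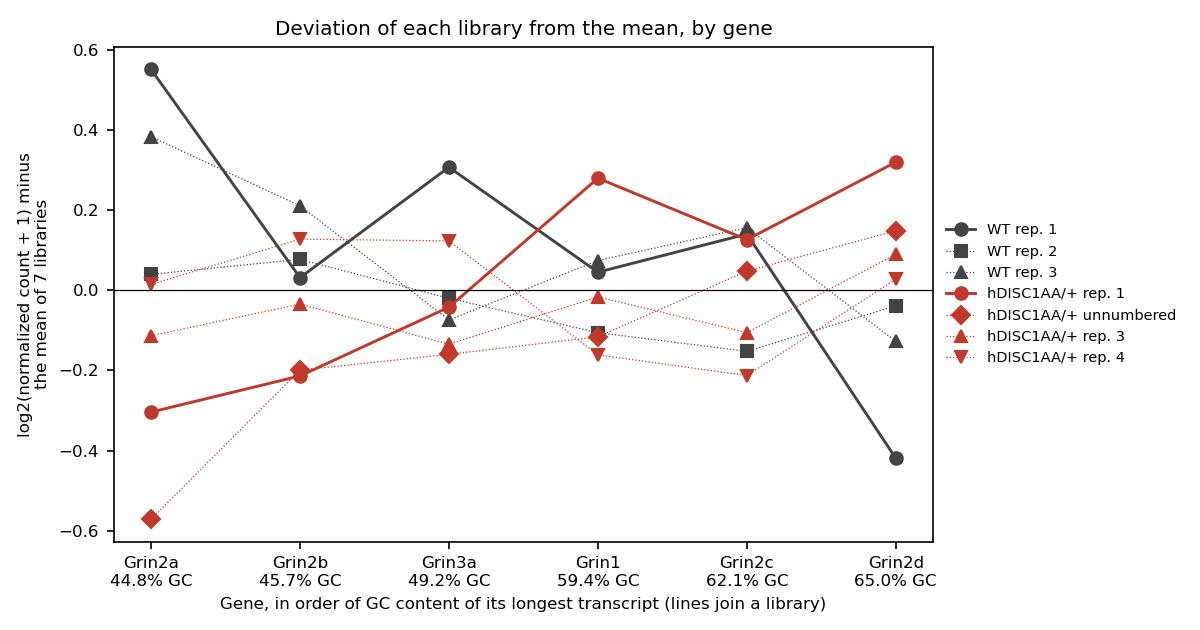
Deviation of each library from the mean of 7 libraries (y axis, log2(normalized count + 1)) for the 6 tested subunit genes in order of GC content (x axis); solid lines join WT replicate 1 and hDISC1AA/+ replicate 1, dotted lines the other libraries. hDISC1AA/+ replicate 1 goes from -0.30 at Grin2a to 0.32 at Grin2d and WT replicate 1 from 0.55 to -0.42. The genes with low GC content also have the longer merged exons.

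Variation between libraries was largest for Grin2a among the 6 tested subunit genes, with a coefficient of variation of 26.7% over all 7 libraries and a highest value 2.18 times the lowest. Grin2d followed with 15.6% and Grin3a with 11.9%, and Grin1, Grin2b and Grin2c had 10.5% to 11.0%. Within the groups Grin2a had 17.5% in WT and 17.1% in hDISC1AA/+. Grin1 varied more in hDISC1AA/+ (14.4%) than in WT (6.58%), a difference that was not tested.

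The genes whose pattern over the 7 libraries was nearest to that of a subunit gene were ranked by the root mean square difference of centred log2 values. Nearest to Grin2a (whose own values had a root mean square of 0.36 about their mean) were the cadherin gene Cdh6 (0.10) and, among others, Ptprz1 (0.12), a receptor phosphatase gene of glial precursors and astrocytes. Both had their lowest value in the unnumbered hDISC1AA/+ library, as Grin2a did (285 and 6314 normalized counts). Since they were picked for likeness to Grin2a over these same libraries, this is no separate finding. Nearest to Grin1 were Lrp3 (0.01), Adgrb2 (0.03) and Abcb9 (0.03). Nearest to Grin2b were Vkorc1l1 (0.05), St6gal1 (0.05) and Sema6d (0.05). For Grin2c these were Kcnk5 (0.04), Acot2 (0.04) and Tmem164 (0.05), for Grin2d Pced1b (0.05), Plscr3 (0.05) and Hsf4 (0.06), and for Grin3a Pcnx4 (0.04), Rdh11 (0.04) and Tmem132c (0.04).

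Around the receptor, 35 partner genes were listed, of which 34 were tested. None passed limma's adjusted threshold, 13 were higher and 21 lower, with a median log2 difference of -0.05, against 52.2% lower and a median of -0.01 over all genes tested. Of these genes 1 had an unadjusted p under 0.05, where 2.44% of all genes did. Of the scaffold and auxiliary proteins 6 of 7 were lower (median -0.15). Dlg2, which encodes PSD-93, averaged 14564 ± 2105 normalized counts across WT and 11157 ± 1875 across hDISC1AA/+ (SD, n = 3 and 4), with a log2 fold change of -0.39 (95% CI -0.73 to -0.05; limma adjusted p = 0.974) and no overlap. Neto1, an auxiliary protein of glutamate receptors, had 3472 ± 184 and 3023 ± 157 (-0.20, 95% CI -0.40 to 0.00381), also without overlap. Dlg2 and Neto1 were the only tested partner genes without overlap, while 5.04% of all genes tested had groups that did not overlap.

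The other roles were mixed. Of the 10 kinases and phosphatases 5 were higher and 5 lower (median 0.01); those with the smallest p were Camk2a, the abundant CaMKII subunit of dendritic spines, at -0.07 (95% CI -0.35 to 0.21) and the cyclin-dependent kinase gene Cdk5 at 0.06. Of the transport genes 4 of 5 were lower, with Apba1, an adaptor that links the receptor to kinesin cargo, at -0.18 and Lin7c at -0.43 (95% CI -1.11 to 0.26). Of the genes that supply or remove the co-agonist 3 of 4 tested were lower. Srr, serine racemase, which makes D-serine, was at -0.24 (95% CI -0.58 to 0.10) and the transporter gene Slc7a10 at -0.16, while Dao, which degrades D-serine, was not tested (1.93 to 9.75 normalized counts). Of the downstream genes 4 of 5 were higher, with the nitric oxide synthase gene Nos1 at 0.13, and Creb1 lower at -0.37 (95% CI -0.90 to 0.17). The surface partners Lrp8 (-0.13) and Ephb2 (-0.07) and Rest (0.13), the repressor that acts on Grin2b in development, did not pass either.

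**Figure D5:**
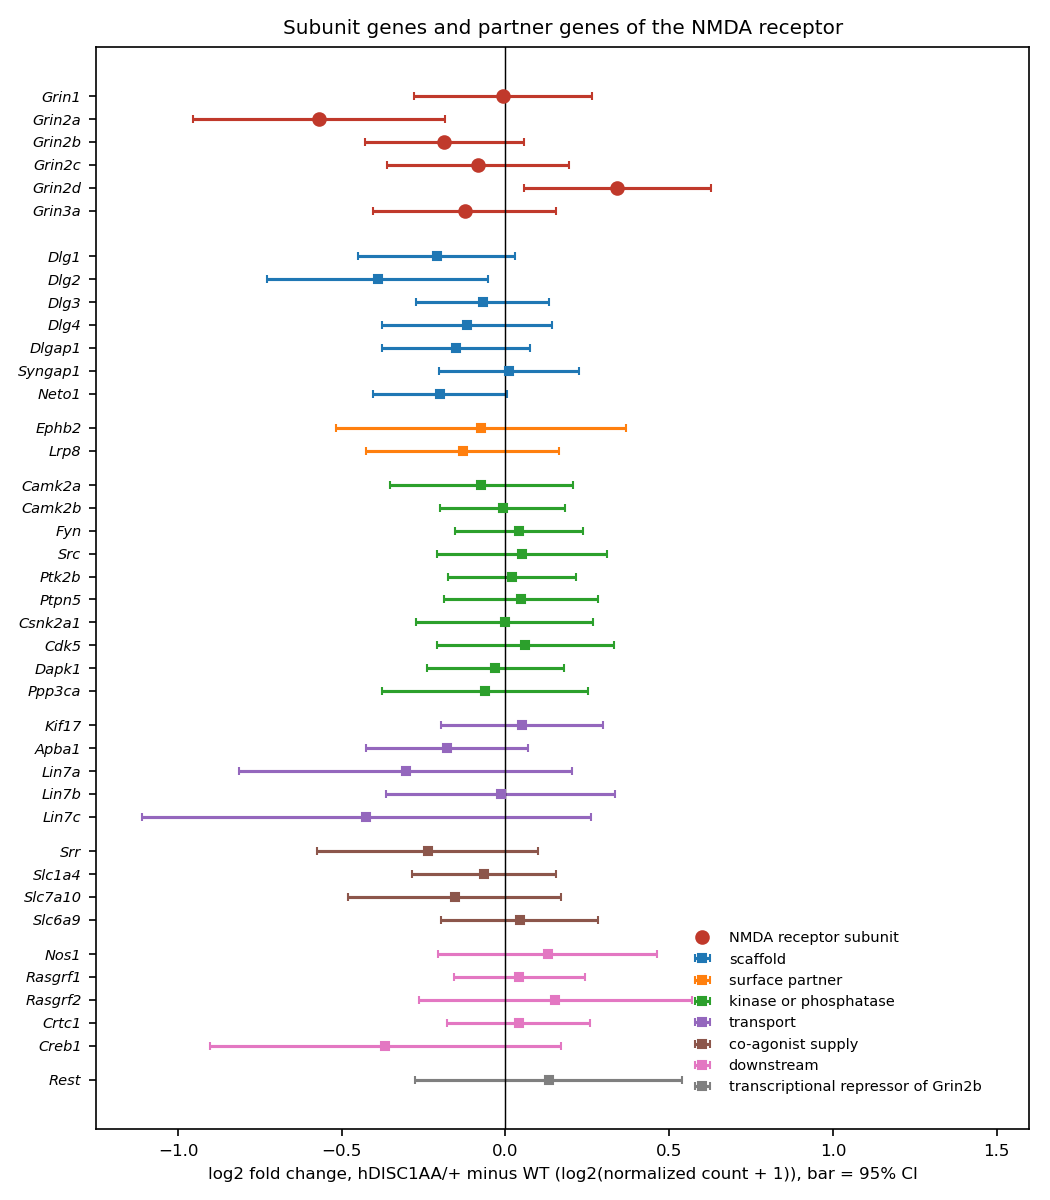
Log2 fold change with 95% confidence interval (x axis, hDISC1AA/+ minus WT) for the 6 tested subunit genes (red circles) and 34 partner genes by role (squares). The intervals of Grin2a (-0.95 to -0.18), Grin2d (0.06 to 0.63) and Dlg2 (-0.73 to -0.05) exclude 0 before adjustment over all genes, and all others include it.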

How the data were processed

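The deposited table holds 1 normalized count per gene and library, a signal that the authors made by dividing gene counts by a size factor: every value above 0 was a whole multiple of its column's smallest step (100% in all 7 columns, tolerance 0.01 reads), which gave back the reads. Per the submitters' processing notes, mm10 and the tools HTSeq 0.6.1, HISAT2 2.1.0, DESeq2 1.26.0 and Trimmomatic 0.39 were used, with no roles given. Symbols, positions and lengths are from GENCODE M21 (GRCm38), which matched 42459 of 43626 identifiers; 3 genes split over lines, no subunit gene among them, were left out. limma 3.58.1 used an intensity trend and robust variances; edgeR 4.0.16 and DESeq2 1.42.0 were alternatives on the reads. In counts simulated for this comparison (17408 genes) limma recovered 20.9% of genes changed 1.5-fold, 67.2% at 2-fold and 92.4% at 4-fold. The changed genes, 66 or 67 per fold, were drawn from those above a minimum mean. Each gene was simulated independently, without the outlying libraries of the data, so these rates need not hold for the data. The GC and length correction fitted splines (4 degrees of freedom each) to each library's deviations, with GC content from the longest transcript and length from merged exons. The 6 ratios were tested by exact permutation.

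The members, lists and tests were chosen with earlier results of these data known. The partner list was chosen from general knowledge of the receptor. Named are all subunit genes, any partner that passed, up to 2 partners per role with the smallest p, and, for each subunit gene whose own mean is at least 100 normalized counts, the 3 nearest genes of any level (unnamed gene models left out; 1 of these genes is not reported here). Dao is named because it was not tested.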

Additional observations from a re-analysis of the deposited data

Results flagged for a closer look

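Among the 4 hDISC1AA/+ libraries, the unnumbered one stood apart in the ratio of Grin2a to Grin2b, at 0.0338 against 0.0405 to 0.0415 in the other 3. The gap to the nearest library was 0.874 of the whole range, above the critical value of 0.829 for 4 samples. Of 13 such checks on subunit genes and ratios this was the only one past it. Chance gives about 1 in 20 for each check, so 1 past it among 13 is not unusual. The checks also share genes and libraries. Without this library the difference in the log2 ratio was -0.31, against -0.38 with it. Groups of 3 libraries, as in WT, were not checked in this way. The unnumbered library also had the highest sum of 4 thalamus markers, 5553 normalized counts against 1604 to 3996 elsewhere. The mean log2 deviation of these markers, 0.24, was close to the 0.19 of hDISC1AA/+ replicate 3. Whether tissue makeup bears on the ratio was not tested.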

How the results depend on the processing

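No alternative called any gene, and Grin2a, Grin2b, Grin2c, Grin2d and Grin3a kept their direction in all 17. The log2 fold change of Grin1, near 0, was 0.00637 with edgeR, 0.00036 with DESeq2 and -0.102 to 0.0445 with 1 library left out. With 1 library left out the log2 fold changes were -0.71 to -0.46 for Grin2a, -0.26 to -0.13 for Grin2b, -0.18 to -0.03 for Grin2c, 0.23 to 0.42 for Grin2d and -0.20 to -0.01 for Grin3a. The Grin2c over Grin2b ratio changed sign with GC content and length corrected (-0.0518), as did Grin3a over Grin1 without WT replicate 1 and hDISC1AA/+ replicate 1 (0.0721); the cause was not tested. With 1 library left out the difference in log2 ratio was -0.51 to -0.23 for Grin2a over Grin2b, -0.70 to -0.45 for Grin2a over Grin1, -0.30 to -0.04 for Grin2b over Grin1, 0.00353 to 0.23 for Grin2c over Grin2b, 0.43 to 0.64 for Grin2d over Grin2b and -0.23 to -0.02 for Grin3a over Grin1. Between 18 and 26 of the partner genes were lower in every alternative. Genes with an unadjusted p under 0.05 numbered 218 without the unnumbered hDISC1AA/+ library and 1823 with array weights, against 431. No paired analysis was possible because the labels give no replicate numbers that pair the genotypes. With 5 or 6 libraries the exact test of a ratio cannot fall below 0.0667.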
